A study of Mus musculus with 3 samples.

Results

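The nuclear genes of oxidative phosphorylation were described in 3 single-cell libraries of mouse lung. A gene was a member if its symbol began with Ndufa, Ndufb, Ndufc, Ndufs, Ndufv, Sdh, Uqcr, Cox4, Cox5, Cox6, Cox7, Cox8 or Atp5 and did not contain -ps. The rule took 97 of the 22954 genes listed, and the mitochondrially encoded genes were not members. Of the 97 members, 95 were above 0 in at least 1 cell, and Atp5s and Atp5o.1 were listed at 0 in all cells of the libraries. By role, the members were 36 subunits and 8 assembly factors of complex I, 4 subunits and 4 assembly factors of complex II, 8 subunits of complex III, 17 subunits of complex IV and the supercomplex factor Cox7a2l, 18 genes of complex V and Atp5s.

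The lungs came from female wild-type C57BL6/J mice, a single animal per group (CONV, CONV AsiDNA or FLASH), collected 5 months after 13 Gy to the thorax. CONV is irradiation at a conventional dose rate and FLASH at an ultra-high dose rate. AsiDNA is an oligonucleotide that mimics a DNA double-strand break, and the CONV AsiDNA mouse was injected with 100 mg/kg on each of the first 2 days and with 200 mg/kg on day 3, the day of irradiation. All 3 mice were irradiated, and controls are not analysed here. A condition was 1 mouse, so no test was possible, and every difference between libraries below is a difference between 3 mice.

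Oxidative phosphorylation is carried out by 5 complexes of the inner mitochondrial membrane. Complexes I and II pass electrons from NADH and succinate to ubiquinone, complex III passes them on to cytochrome c, complex IV (cytochrome c oxidase) hands them to oxygen, and complex V (ATP synthase) uses the resulting proton gradient to make ATP. Most subunits are encoded in the nucleus, complex II entirely so, and several subunits of complex IV exist as paired isoforms of which one is found in most tissues and the other in few. In the lung, beating cilia and contracting muscle consume ATP, whereas neutrophils are known to rely largely on glycolysis.

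The deposited values were converted to whole numbers and are called adjusted counts here, since the sources used here do not state the step that led to them. The libraries held 6372 cells (CONV), 6983 cells (CONV AsiDNA) and 6267 cells (FLASH), with 23908890, 26417388 and 23383510 adjusted counts and medians of 1235.5, 1339 and 1315 genes above 0 per cell. Cells were assigned to classes by counting markers, 8 per class, so that a class name stands for a gate and its cells are only like the type named, and 93%, 95.1% and 95.3% of cells obtained a class. The 20 classes with at least 30 cells in each library were compared. In all of these, between 3 and 7 of the class's own markers were among its 10 leading genes by fold. The gate named for classical monocytes was led by Prtn3, Elane, Mpo and Siglech, against its name, and was not compared, and no cell passed the pericyte gate. Libraries shared 9 to 17 cell barcodes in pairs. Levels are given as adjusted counts per 1000000 of a class (adjusted CPM), and as the 3 tables may have been normalized separately, levels set across libraries carry that limit.

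Values in this order are for CONV, CONV AsiDNA and FLASH wherever 3 are given. The members together took 1.30%, 1.31% and 1.26% of the adjusted counts of all gated cells. Their levels over all gated cells spanned from 0 to 495 adjusted CPM with a median of 104, and 86 members reached at least 20. The 6 highest were Cox4i1 at 495, Cox7c at 466, Atp5e at 450, Uqcrh at 427, Cox8a at 419 and Cox6c at 414 adjusted CPM. In 3′ counting a molecule is recorded once whatever its length, so no division by length was made, but these levels remain adjusted values and not numbers of molecules. Of these 6, 4 encode subunits of complex IV, 1 of complex III and 1 of complex V. At the other end were Ndufa4l2 at 1.86, Cox7a1 at 1.76, Cox8b at 1.27 and Cox4i2 at 1.20 adjusted CPM, all of them isoforms of complex IV subunits. The 10 most abundant members held 30.7% of the member counts, and 70 members were above 0 in each of the 20 classes.

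The share of adjusted counts taken by the members differed between cell classes far more than between libraries. The ciliated class was highest in every library, with 1.96%, 2.36% and 1.95%. The neutrophil class was lowest, with 0.313%, 0.266% and 0.257%, so that the highest class exceeded the lowest by 6.26-fold, 8.89-fold and 7.57-fold. In single ciliated cells the interquartile range of the share was 1.29% to 2.64% in CONV, whereas in single neutrophils it was 0.160% to 0.406%, and the interquartile ranges of these classes did not overlap in any library. A median ciliated cell had 51, 55 and 50 members above 0 and a median neutrophil 5, 5 and 4, at medians of 4526, 4495.5 and 4485 against 2777, 2901 and 2934 adjusted counts. The library difference reached 1.96-fold in the club class and stayed at or below 1.27-fold in the other 19 classes, with a median over classes of 1.16-fold.

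After the ciliated class came the SMC class (smooth muscle cells) with 1.94%, 1.97% and 1.78%, NK cells with 1.94%, 1.88% and 1.84%, and AT1 cells (flat alveolar cells of gas exchange) with 1.95%, 1.70% and 1.53%. These 3 classes changed places between libraries, and ILC2 passed AT1 cells in FLASH. ILC2, T cells, cDC1, AT2 cells and cDC2 followed, all 5 above the median class in every library, and the endothelial classes and B cells lay between 1.15% and 1.33%. Interstitial macrophages (IM), fibroblasts, resident alveolar macrophages (resident AM), Spp1 macrophages and patrolling monocytes lay between 0.917% and 1.18% and overlapped each other. The club class, the secretory cells of the airway, was second lowest with 0.418%, 0.501% and 0.818%. Neutrophils stayed lowest in all 24 combinations of 8 other settings and 3 libraries, whereas the ciliated class stayed highest in 15 of these 24 and the club class second lowest in 18. When ribosomal protein genes were left out of the total, NK cells were highest in CONV, T cells in CONV AsiDNA and ILC2 in FLASH.

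**Figure D1:**
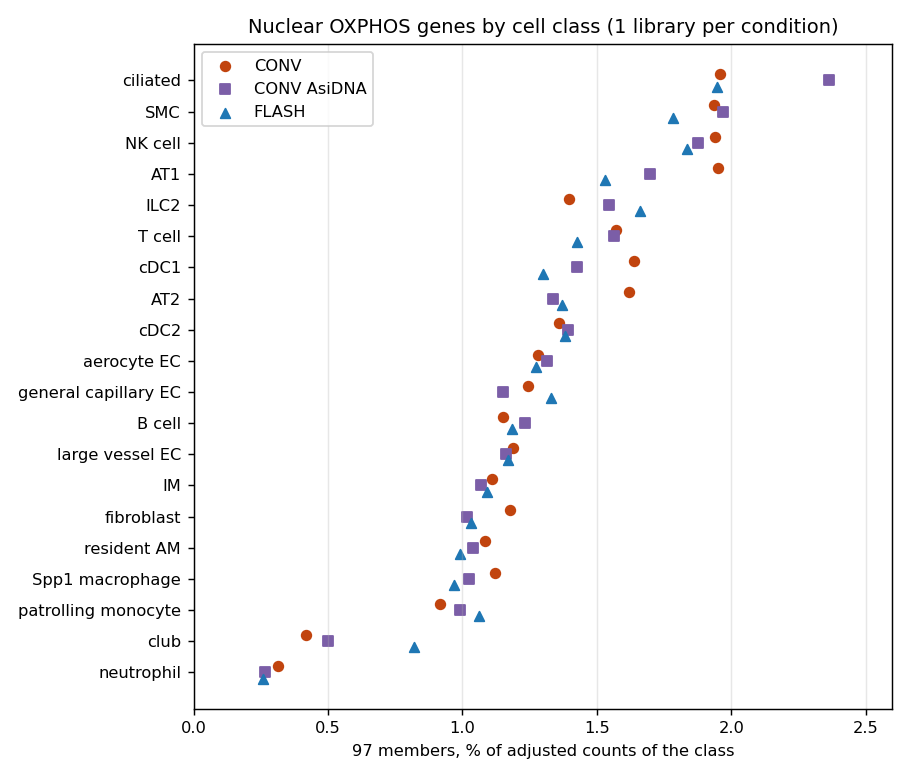
Summed adjusted counts of the 97 members as a percentage of all adjusted counts of a class (x axis) in 20 gated cell classes (y axis, ordered by the mean of the 3 libraries), with 1 point per library. The ciliated class sits between 1.95% and 2.36% and the neutrophil class between 0.257% and 0.313%. As a fold of the highest over the lowest library, the 3 points differ most in the club class (1.96-fold).

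To see which members carried these differences, the level of each member in a class was divided by its median over the other 19 classes in the same library, and a member was counted if it was past 1.5-fold in the same direction in all 3 libraries. This was done for the 85 members, and for the 7122 genes in all, with a mean of at least 20 adjusted CPM over the classes. In the ciliated class 34 of 85 members were higher and 1 was lower, where 25% and 16.1% of all genes were. In the SMC class 25 were higher and 2 lower, where 19.3% and 8% of all genes were. In NK cells 23 were higher and 1 lower, where 18.5% and 8.99% of all genes were. In AT1 cells 16 were higher and 0 lower, where 17.4% and 7.48% of all genes were. As 16 of 85 is near the share of all genes, the count of higher members in AT1 cells is not a result about the members.

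Of the 34 in the ciliated class and the 25 in the SMC class, 13 were shared (38.2% and 52%), and with NK cells the ciliated class shared 8 (23.5% of its own and 34.8% of theirs). Of all 85 members, 40% were higher in the ciliated class, 29.4% in the SMC class and 27.1% in NK cells. The 52% and 34.8% thus stand beside 40%, the 38.2% beside 29.4% and the 23.5% beside 27.1%. Of the 16 in AT1 cells, 9 were shared with the ciliated class (56.2%, beside 40%). With the SMC class AT1 cells also shared 9 (56.2%, beside 29.4%). No overlap was tested, and none is read as a result about the members. In the ciliated class the complex I subunit Ndufab1, which is also the acyl carrier protein of mitochondria, was at 311, 395 and 319 adjusted CPM, a log2 ratio of 2.16, 2.20 and 2.16 over the other classes. Ndufc2, a complex I membrane arm subunit, was at 631, 680 and 559 adjusted CPM in ciliated cells, with log2 ratios of 2.37, 2.57 and 2.99. Ndufc2 was also high in AT1 cells (417, 473 and 275 adjusted CPM) and AT2 cells (355, 308 and 282), but was at 5.04, 43.3 and 1.53 in NK cells and was listed at 0 in all 870 neutrophils. The levels of Ndufc2 in ciliated, AT1 and AT2 cells thus lay far above those in NK cells and neutrophils. Ndufc2 was also among the higher members in general capillary cells.

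The complex I assembly factor Ndufaf3 was at 159, 199 and 179 adjusted CPM in ciliated cells, and its next class, the aerocytes, was at 60.0, 48.7 and 68.1. Sdhd, a membrane anchor of complex II, was at 150, 196 and 151 adjusted CPM in ciliated cells, while Spp1 macrophages, next in order, were at 72.3, 75.1 and 67.7. Atp5md, a small subunit of complex V, was at 592, 690 and 579 adjusted CPM in ciliated cells and at 30.3, 22.7 and 87.8 in club cells. All 3 of these members were highest in the ciliated class in each library. The only member lower there was Cox7a2l, which takes part in joining complexes III and IV into supercomplexes, at 83.8, 71.3 and 77.9 adjusted CPM against 501, 470 and 539 in T cells.

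Among the members shared by the ciliated and the SMC class, Cox6c, a complex IV subunit, was at 1082, 1151 and 1016 adjusted CPM in the latter, and Ndufa11, a membrane arm subunit of complex I, was at 371, 360 and 360 there, while AT1 cells had 1106, 1095 and 880 of Cox6c. NK cells had Cox8a at 1054, 880 and 879 adjusted CPM, log2 ratios of 1.33, 1.24 and 1.18 over the other classes. The hinge subunit of complex III, Uqcrh, was at 717, 725 and 730 adjusted CPM in T cells and at 690, 734 and 762 in ILC2, but at 136, 144 and 122 in Spp1 macrophages. Sdhaf1, an assembly factor of complex II, was at 155, 145 and 98.7 adjusted CPM in ILC2 and at or below 3.00 in Spp1 macrophages and club cells. In cDC2, Ndufa6 was at 542, 464 and 434 adjusted CPM while Ndufa4, a complex IV subunit despite its name, was at 60.2, 120 and 49.8.

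The lymphoid, dendritic, AT2 and monocyte classes were compared in the same way. In ILC2 12 were higher and 0 lower (where 13.4% and 10.8% of all genes were), and in T cells 10 higher and 2 lower (17% and 13.3%). In B cells 5 were higher and 8 lower (14.5% and 16.5%). The supercomplex factor Cox7a2l and the complex V gene Atp5g2 were among the higher members in all 3 of these classes. Among dendritic cells, cDC1 had 9 higher and 6 lower members (13.8% and 21.9%) and cDC2 6 higher and 3 lower (15% and 16.7%). In AT2 cells 9 were higher and 4 lower (16.8% and 25%), and in patrolling monocytes 4 higher and 22 lower (24% and 7.33%).

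In aerocytes, the capillary cells of gas exchange, 12 members were higher and 5 lower (26.9% and 8.28%), and in general capillary cells 8 higher and 2 lower (29.4% and 3.47%). The complex I assembly factors Ndufaf3 and Ndufaf4 were among the higher members in both. Large vessel endothelium had 1 higher and 4 lower members (22.2% and 5.9%), fibroblasts 5 and 7 (20.5% and 8.16%) and interstitial macrophages 2 and 2 (19.4% and 5.28%). In these 5 classes the higher members were a smaller share of the 85 than the higher genes were of all genes.

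**Figure D2:**
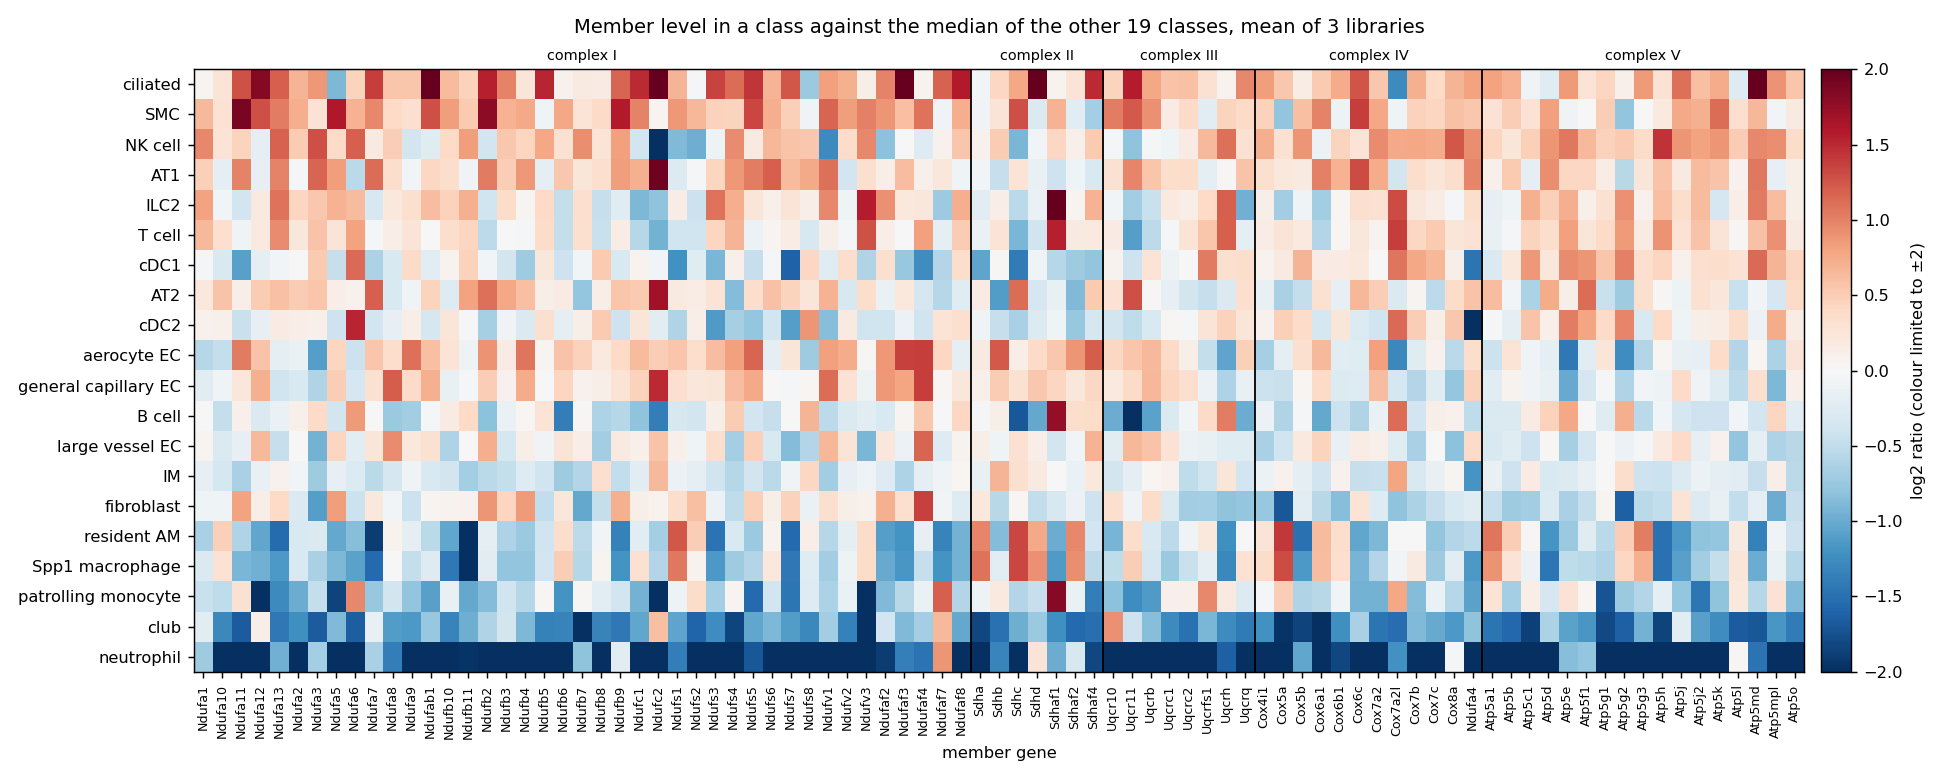
Log2 ratio of the level of a member (columns, grouped by complex) in a class (rows) over the median of the other 19 classes, averaged over the 3 libraries, for the 85 members past the minimum, with red higher and blue lower. The neutrophil and club rows are blue for most members, the ciliated row is red for most, and Cox5a, Sdha, Sdhc, Sdhd and Sdhaf2 are in red in the resident AM and Spp1 macrophage rows.

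In neutrophils 72 of 85 members were lower and 1 was higher, where 36.3% and 16.4% of all genes were. Cox4i1, the common isoform of the largest nuclear subunit of complex IV, was still above 0 in 38 of 265, 56 of 304 and 38 of 301 neutrophils, at 97.4, 121 and 85.4 adjusted CPM. Cox7c was at 8.01, 51.1 and 5.47 adjusted CPM in neutrophils and Ndufa4 at 2.67, 3.26 and 0, whereas NK cells had 514, 581 and 575 of Ndufa4. Of the 97 members, 34, 47 and 59 were listed at 0 in all neutrophils of a library. The member that was higher was the complex I assembly factor Ndufaf7, at 53.4, 33.7 and 48.2 adjusted CPM. Neutrophils also had few counts from ribosomal protein genes (0.895% to 0.948%), and their 10 most abundant genes took 31.6%, 33.3% and 34.6% of the total. With these 10 genes left out of the total, the share of the members in neutrophils was 0.457%, 0.398% and 0.394%, still below each of the other classes.

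The genes of glycolysis did not follow the members in neutrophils. The 20 genes of a glycolysis list took 0.344%, 0.404% and 0.383% of adjusted counts in neutrophils, above T cells with 0.155%, 0.161% and 0.156%. Ciliated cells had 0.239%, 0.231% and 0.235%. In CONV, aerocytes with 0.384% and Spp1 macrophages with 0.368% were above neutrophils, while in CONV AsiDNA and FLASH no compared class was. A high share of this list was thus not particular to neutrophils. The 17 genes of the tricarboxylic acid cycle, which feeds electrons to complexes I and II, took 0.0215%, 0.0286% and 0.0231% in neutrophils and 0.199%, 0.197% and 0.178% in ciliated cells. An import and outer membrane list of 18 genes was at 0.0344%, 0.0398% and 0.0321% in neutrophils and at 0.269%, 0.332% and 0.286% in ciliated cells. The 37 other assembly and carrier genes of respiration took 0.123%, 0.130% and 0.107% in neutrophils and 0.334%, 0.393% and 0.343% in ciliated cells. For 15 regulators of mitochondrial gene expression the shares were 0.0160%, 0.0140% and 0.00887% in neutrophils and 0.0350%, 0.0384% and 0.0358% in ciliated cells. A low oxygen response list of 14 genes took 0.0837%, 0.0997% and 0.0817% in neutrophils and 0.0382%, 0.0480% and 0.0413% in ciliated cells. The lists of the cycle, of import, of assembly and of regulators were thus ordered as the members were in neutrophils and ciliated cells. The lists of glycolysis and of low oxygen were ordered the other way in these 2 classes.

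In the club class 49 of 85 members were lower than in the other classes and 0 higher, where 57.5% and 6.12% of all genes were, so the count of lower members is near the share of all genes and is not a result about the members. One gene, the secretoglobin Scgb1a1, took 60.2%, 63.4% and 60.5% of adjusted counts in club cells. With the 10 most abundant genes of each class left out of the total, the members took 1.49%, 1.92% and 2.73% in club cells, and 4 rather than 49 members were lower. The share of all genes that were lower under that total is not given, so the 4 is not read against it. Under the same total the club class was second lowest in no library, and in FLASH it was the highest class, where ciliated cells had 2.30%. Uqcr10, a small subunit of complex III, was at 215, 251 and 369 adjusted CPM in club cells, beside 361, 295 and 235 in the SMC class. The complex III genes made up 14.2%, 14.2% and 13.3% of the member counts in club cells, the highest proportion of any class in each library, where the median class had 9.57%, 9.52% and 9.63%.

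Alveolar macrophages showed another composition. Complex II subunits made up 3.83%, 4.06% and 3.79% of the member counts in resident AM and 4.01%, 4.42% and 4.85% in Spp1 macrophages, where the median class had 2.06%, 2.00% and 1.83%. Spp1 macrophages ranked first in each library, and cDC1 were at 0.946%, 1.38% and 1.05%. Other classes were above the median class as well. Neutrophils were at 2.69%, 4.21% and 2.43%, above resident AM in CONV AsiDNA. Aerocytes were at 3.18%, 2.84% and 3.04% and interstitial macrophages at 2.99%, 2.79% and 2.62%. Sdha, the catalytic flavoprotein of complex II, was at 181, 180 and 159 adjusted CPM in resident AM and at 182, 179 and 203 in Spp1 macrophages. Sdhc, an anchor subunit, was at 122, 132 and 122 in resident AM, and in B cells at 1.56, 24.3 and 2.82. Complex I made up 24.3%, 22.3% and 21.8% of the member counts in resident AM, below the median class with 28.1%, 27.6% and 27.7%. Complex V was proportionally highest in cDC1 with 36.8%, 34.8% and 35.7% and next in cDC2 with 34.4%, 34.2% and 34.3%.

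Within complex IV, the nuclear subunits Cox5a and Cox5b, which are different subunits and not isoforms, lay on opposite sides of the other classes in alveolar macrophages. Cox5a was at 475, 454 and 503 adjusted CPM in resident AM and at 434, 461 and 435 in Spp1 macrophages, log2 ratios of 1.18 to 1.46 over the other classes. Cox5b was at 54.6, 70.1 and 59.0 adjusted CPM in resident AM, with log2 ratios of -1.64, -1.25 and -1.57. Overall 8 of 85 members were higher in resident AM (Ndufs1, Sdhc, Atp5g3, Sdhd, Cox5a, Sdha, Atp5a1 and Sdhaf2) and 27 were lower, where 28.9% and 10.5% of all genes were. In Spp1 macrophages 7 were higher, all of them among these 8, and 27 were lower, where 24.7% and 15.4% of all genes were. Among the 8 are Ndufs1, an iron-sulphur subunit of complex I, Atp5a1, the alpha subunit of complex V, and Sdhaf2, an assembly factor of complex II. The lower members in resident AM include Ndufs3 and Ndufs7 of complex I, Sdhb, the iron-sulphur subunit of complex II, and Atp5d of complex V.

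Among the isoforms of complex IV that are known from few tissues, the number of the 20 classes with any cell above 0 was 2 for Cox8b, 4 for Cox4i2, 5 for Ndufa4l2, 6 for Cox6a2, 9 for Cox7a1 and 16 for Cox6b2. Cox4i2 (chr2:152754173-152765037 in GRCm38, plus strand), an isoform associated with low oxygen, was above 0 in 19 of 51 (37.3%, 95% interval 24.1% to 51.9%), 8 of 66 (12.1%, 5.38% to 22.5%) and 15 of 48 (31.3%, 18.7% to 46.3%) cells of the SMC class. The intervals are exact Clopper-Pearson intervals and cover the sampling of cells only. Cox4i2 formed 17.3%, 5.47% and 11.03% of the counts of Cox4i1 and Cox4i2 together in that class. Outside it, Cox4i2 was above 0 in 11, 12 and 8 AT2 cells and was listed at 0 in all 4081 B cells. Ndufa4l2 (chr10:127514967-127517154, plus strand), a relative of Ndufa4 that is likewise associated with low oxygen, was above 0 in 17 of 51, 14 of 66 and 8 of 48 cells of the SMC class and in 9 of 65, 9 of 117 and 10 of 171 fibroblasts. In aerocytes it was above 0 in 6 of 63, 0 of 168 and 2 of 179 cells.

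The SMC class also held cells with pericyte markers. Pericytes wrap capillaries and share genes with smooth muscle, and the cells of the SMC class had a median of 4, 3 and 4 of the 8 pericyte markers above 0. In all, 7, 6 and 6 of these markers were above 0 in the class, with a summed level of 1628 to 2609 adjusted CPM, and Higd1b was listed at 0 in each library. Of the 8 fibroblast markers, 8, 7 and 8 were above 0 in the class, with a median of 3 per cell in each library. Their summed levels were 1690, 2086 and 2257 adjusted CPM. Of the 46, 46 and 36 SMC cells with at least 3 pericyte markers, 18, 8 and 12 were above 0 for Cox4i2, while of the other 5, 20 and 12 cells 1, 0 and 3 were. For Ndufa4l2 the numbers were 16, 14 and 7 against 1, 0 and 1. Both genes together were above 0 in 12, 5 and 3 cells. Whether a pericyte population within the class accounts for this was not tested, nor was the part of cells with fibroblast markers. The gene Ndufa4l2 overlaps Shmt2 on the opposite strand.

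Cox6a2 (chr7:128205435-128206387, minus strand), known as the isoform of heart and skeletal muscle, was found in alveolar epithelium. It was above 0 in 110 of 290 (37.9%, 32.3% to 43.8%), 165 of 327 (50.5%, 44.9% to 56.0%) and 182 of 381 (47.8%, 42.7% to 52.9%) AT2 cells, the surfactant-making cells of the alveolus. It formed 50.2%, 66.0% and 58.7% of the counts of Cox6a1 and Cox6a2 together in AT2 cells, at 236, 340 and 267 adjusted CPM against 234, 175 and 188 for Cox6a1. In the SMC class, in ciliated cells and in T cells it was listed at 0. Outside AT2 cells 9, 29 and 52 cells were above 0 for Cox6a2, and 3, 28 and 50 of these were also above 0 for Siglech, a surface receptor known from plasmacytoid dendritic cells. Siglech was chosen after the values were seen. Of all Siglech cells 3 of 26, 28 of 83 and 50 of 107 were above 0 for Cox6a2. Cox6a2 overlaps Itgad on the opposite strand.

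Fibroblasts carried a further pair of isoforms. Cox6b2 (chr7:4751792-4753094, minus strand), known from testis, was above 0 in 20 of 65 (30.8%), 48 of 117 (41.03%) and 64 of 171 (37.4%) fibroblasts and formed 46.5%, 54.9% and 41.9% of the counts of Cox6b1 and Cox6b2 together. It was also above 0 in 18.7%, 23.7% and 22.9% of resident AM and in 6.55%, 18.3% and 18.4% of AT2 cells, and in 0 of 1034 ciliated cells. Spp1 macrophages had 79 of 738, 13 of 130 and 5 of 59 cells above 0 for Cox6b2, and cDC2 4 of 45, 23 of 174 and 18 of 135. In the mesothelial gate, which was too small to be compared, Cox6b2 was above 0 in 8 of 18, 21 of 44 and 13 of 38 cells. Cox8b (chr7:140898945-140900446, minus strand), known from muscle and brown fat, was above 0 in 7 of 65 (10.8%, 4.44% to 20.9%), 15 of 117 (12.8%, 7.36% to 20.3%) and 42 of 171 (24.6%, 18.3% to 31.7%) fibroblasts. Elsewhere it was above 0 in 2 of 11, 2 of 20 and 3 of 26 cells of the lymphatic endothelial gate, which was not compared, in 1 NK cell of FLASH and in 1 ungated cell of FLASH. Cox8b was listed at 0 in the SMC class. Cox7a1, likewise known from muscle, was listed at 0 in the SMC class and in fibroblasts, and was above 0 in 15 of 299, 22 of 420 and 6 of 315 ciliated cells. The fixed pairs Cox7b2 and Cox8c were not among the genes listed.

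These percentages of cells depend on depth. With each cell thinned to 1000 adjusted counts, Cox6a2 was above 0 in 15.2%, 21.1% and 19.4% of AT2 cells and Cox4i2 in 13.7%, 3.03% and 8.33% of the SMC class. Thinned values for Ndufa4l2 were 15.7%, 7.58% and 8.33% of the SMC class. For Cox6b2 they were 13.8%, 15.4% and 15.2% of fibroblasts and 4.48%, 5.97% and 5.15% of resident AM, and for Cox8b 4.62%, 3.42% and 6.43% of fibroblasts. Thinning thus lowered each of these percentages by more than 1.5 times, and it brought the libraries closer for Cox8b in fibroblasts.

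**Figure D3:**
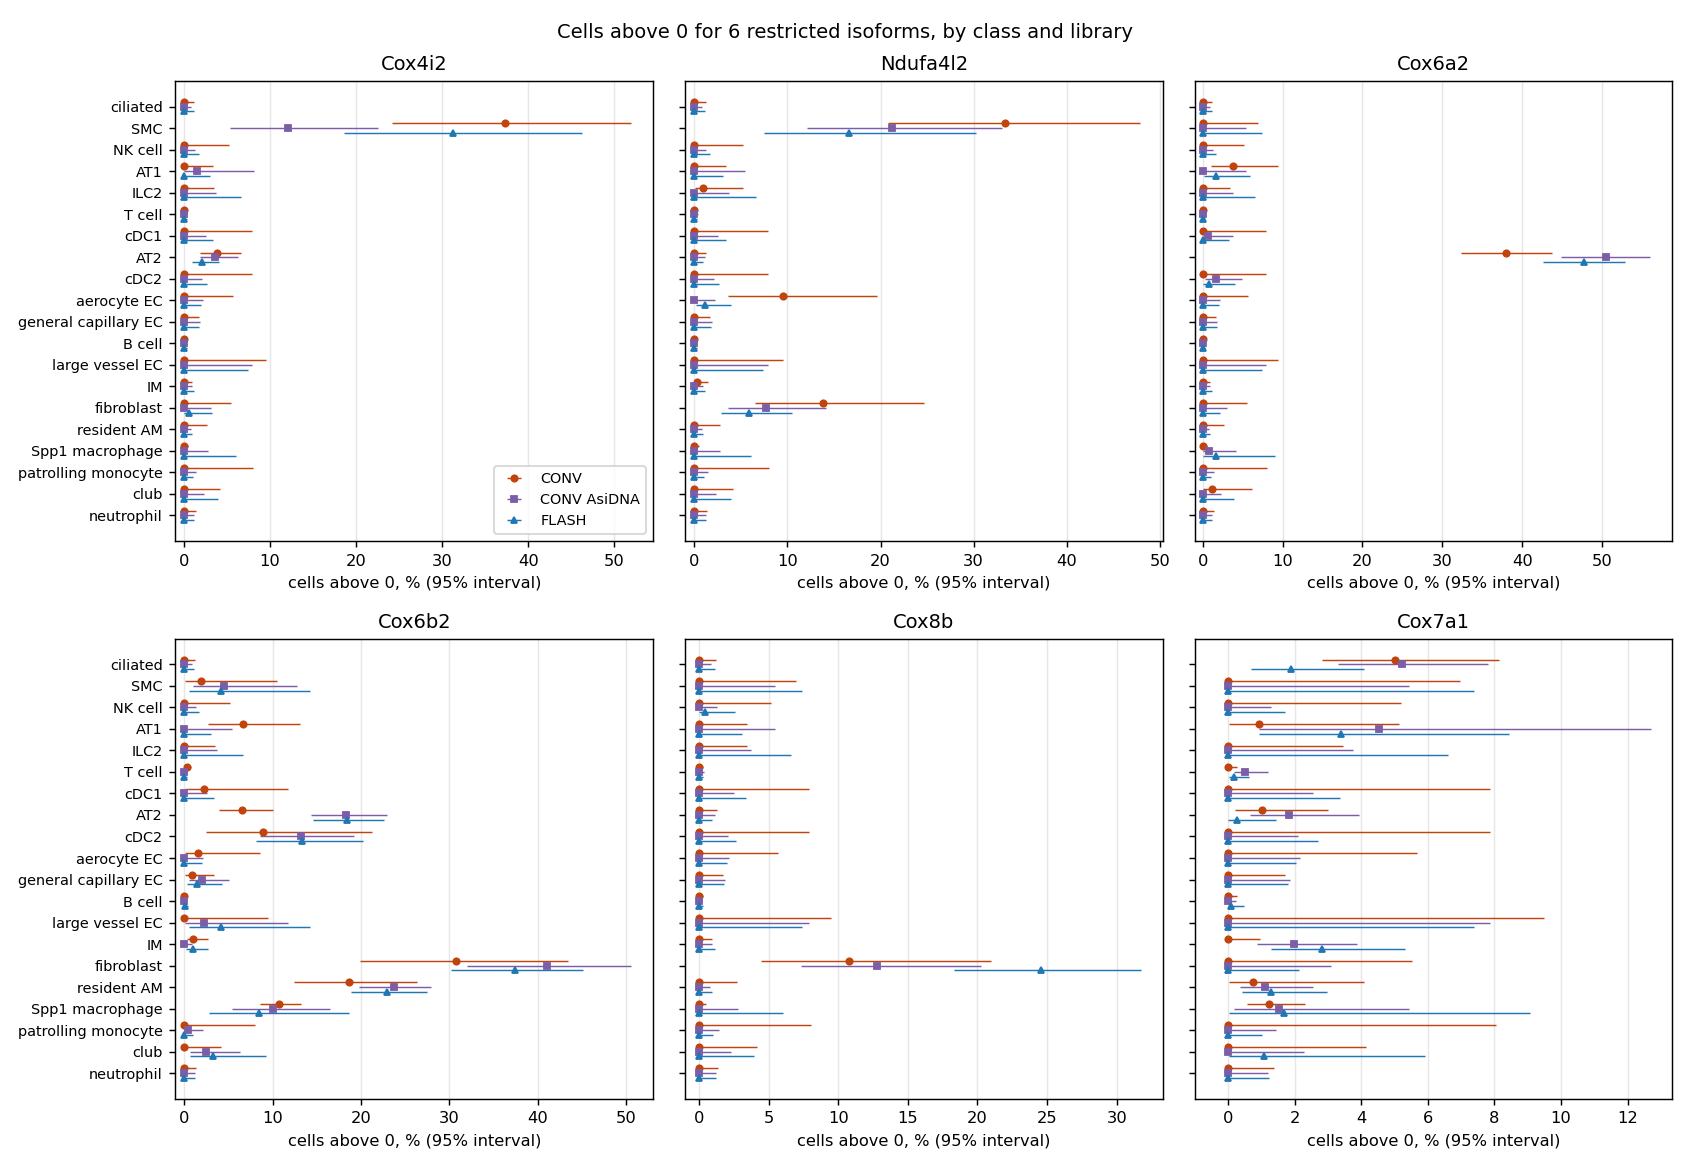
Percentage of cells above 0 (x axis) in 20 classes (y axis) for 6 isoforms of complex IV subunits, with 1 point per library and exact 95% intervals that cover the sampling of cells only. Cox4i2 and Ndufa4l2 are highest in the SMC class, Cox6a2 in AT2 cells, and Cox6b2 and Cox8b in fibroblasts, where Cox8b goes from 10.8% to 24.6%.

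The promoters of common and restricted isoforms are shown because Cox6b2 and Cox8b had their highest levels, among the 20 compared classes, in fibroblasts. Their common partners are Cox6b1 and Cox8a, and Cox6a1 is the common partner of Cox6a2. RefSeq windows of 300 bases (250 before and 50 after the start, GRCm38.p6) were at hand for 78 of the 97 members, and the 250 upstream bases are printed 5′ to 3′ in the direction of the gene. Capitals mark the letters GCATGCGC (known from nuclear respiratory factor 1 sites) and CCGGAAG (known from ETS factor sites), searched on both strands, and those of AAGATGGC (YY1) and TATAAA were searched as well. The intervals are chr5:115348959-115349208 for Cox6a1, chr7:30626115-30626364 for Cox6b1, chr7:4753095-4753344 for Cox6b2, chr19:7217617-7217866 for Cox8a and chr7:140900447-140900696 for Cox8b, all on the minus strand.
Cox6a1: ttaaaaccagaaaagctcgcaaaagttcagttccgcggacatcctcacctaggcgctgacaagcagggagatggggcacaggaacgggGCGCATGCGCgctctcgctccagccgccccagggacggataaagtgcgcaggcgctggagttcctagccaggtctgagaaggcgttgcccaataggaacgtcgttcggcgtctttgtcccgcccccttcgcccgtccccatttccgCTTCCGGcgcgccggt
Cox6b1: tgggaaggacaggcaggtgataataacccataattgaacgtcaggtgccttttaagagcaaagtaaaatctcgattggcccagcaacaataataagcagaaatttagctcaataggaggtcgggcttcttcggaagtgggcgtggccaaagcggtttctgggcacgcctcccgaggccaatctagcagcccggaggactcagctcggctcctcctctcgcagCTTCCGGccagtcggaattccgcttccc
Cox6b2: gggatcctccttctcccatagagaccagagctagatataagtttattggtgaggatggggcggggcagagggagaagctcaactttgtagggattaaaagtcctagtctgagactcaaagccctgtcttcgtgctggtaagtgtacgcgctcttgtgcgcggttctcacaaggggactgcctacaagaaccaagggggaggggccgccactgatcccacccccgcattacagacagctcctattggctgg
Cox8a: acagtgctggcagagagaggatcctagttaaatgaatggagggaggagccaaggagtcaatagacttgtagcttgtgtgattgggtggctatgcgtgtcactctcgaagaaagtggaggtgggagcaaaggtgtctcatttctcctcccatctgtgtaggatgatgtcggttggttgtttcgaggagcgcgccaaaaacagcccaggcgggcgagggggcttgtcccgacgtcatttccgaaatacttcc
Cox8b: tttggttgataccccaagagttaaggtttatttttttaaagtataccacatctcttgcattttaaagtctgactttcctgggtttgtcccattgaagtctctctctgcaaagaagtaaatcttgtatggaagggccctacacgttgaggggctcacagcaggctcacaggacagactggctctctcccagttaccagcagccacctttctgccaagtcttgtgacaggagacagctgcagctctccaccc

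GCATGCGC and CCGGAAG were both found upstream of Cox6a1, and CCGGAAG upstream of Cox6b1. No motif of the 4 was found in the printed bases of Cox6b2, Cox8a or Cox8b, and the 300-base windows of Cox8a and Cox8b held CCGGAAG and TATAAA, respectively, outside the printed bases. The windows of the common forms Cox7a2 and Ndufa4, of the restricted form Cox7a1 and of Cox5b, which is in none of the pairs, held none of the 4. In the isoform windows described here, GCATGCGC and CCGGAAG were thus found only in common forms, but not in all of them. The windows of Cox4i1, Cox4i2, Cox6a2 and Ndufa4l2 are not described, so whether the motifs separate common from restricted forms cannot be said from so few. Over the windows of the 78 members, 15.4% held GCATGCGC against 3.05% of all 27025 genes with a window, 28.2% held CCGGAAG against 9.93%, 12.8% held AAGATGGC against 3.19% and 10.3% held TATAAA against 15.7%. Among the 15522 genes of the tables with a window the shares were 4.63%, 15%, 4.02% and 11.2%. The first 3 motifs were thus more frequent in members than in either set, while the share with TATAAA was near that of the genes of the tables. The median G and C content was 58.7% in the windows of members and 52.7% in all windows. A match is a run of letters and not a binding site.

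Between libraries, the members of a class differed little as a group. Library ratios were computed after adding 10 to each adjusted CPM, so that changes of low genes are understated, for members with a mean of at least 20 adjusted CPM in the class. The median over the 20 classes of the median log2 ratio was 0.03 in the first pair of libraries (CONV over CONV AsiDNA), 0.06 in CONV over FLASH and 0.02 in CONV AsiDNA over FLASH. Of 1568 pairs of a member and a class, 115 were higher and 131 lower by 1.5-fold in CONV over CONV AsiDNA (7.33% and 8.35%, where 12% and 14.3% of all gene and class pairs were). In CONV over FLASH 132 were higher and 153 lower (8.42% and 9.76%, where 14.7% and 13.9% of all pairs were). In CONV AsiDNA over FLASH 66 were higher and 96 lower (4.21% and 6.12%, where 9.08% and 6.26% of all pairs were). In 5 of these 6 counts the members were less often past the fold than all genes by over 2 percentage points. The club class supplied 51 of the 153 lower pairs in CONV over FLASH and 38 of the 96 in CONV AsiDNA over FLASH.

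The club class was the only one whose median member passed 1.5-fold, and this depended on the cells and genes taken. With cells of at least 500 genes the medians were -0.53 in CONV over FLASH and -0.50 in CONV AsiDNA over FLASH, both inside 1.5-fold. Over the 12 alternatives run, CONV over FLASH was inside 1.5-fold in 1 and CONV AsiDNA over FLASH in 6. In CONV over FLASH the median log2 ratio of 68 members was -0.80 beside -0.06 over all 1767 genes, and 51 members were lower and 0 higher, where 23.7% and 24.1% of all genes were. In CONV AsiDNA over FLASH the median was -0.61 beside -0.01, and 38 members were lower and 0 higher, where 20.3% and 17.3% of all genes were. Atp5a1 was at 19.5, 78.9 and 126 adjusted CPM in club cells, Cox6a1 at 17.3, 31.1 and 94.3, Cox5a at 17.3, 45.4 and 81.4 and Uqcrq at 30.3, 49.0 and 111. These 4 members rank FLASH above CONV AsiDNA and CONV AsiDNA above CONV.

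The club cells of the libraries also differed in other respects. Malat1, a nuclear RNA, was at 31180, 20096 and 12720 adjusted CPM in club cells, in the reverse order of the members. Of 6 genes known from secretory airway cells, Scgb3a1 (20362, 13877 and 9819) and Muc5b (1062, 906 and 776) ran the reverse way as well, Scgb3a2 (20665, 24583 and 29406) and Cyp2f2 (7423, 9834 and 10194) followed the order of the members, and Scgb1a1 and Bpifa1 followed neither. The lists of glycolysis (0.0895%, 0.112% and 0.165%), import (0.0345%, 0.0401% and 0.0600%) and other assembly and carrier genes (0.0561%, 0.0619% and 0.0938%) followed the order of the members. The tricarboxylic acid cycle list did so as well (0.0327%, 0.0352% and 0.0480%), the regulators of mitochondrial gene expression ran the reverse way (0.00542%, 0.00478% and 0.00429%), and the low oxygen list followed neither order (0.0184%, 0.0127% and 0.0146%). The class held 87, 160 and 92 cells at similar medians of 602, 608 and 608 genes above 0 per cell, and the median cell had 12, 16 and 25 members above 0. Ciliated markers were at 0 in the club cells of CONV and CONV AsiDNA, and 7 of the 8 were above 0 in those of FLASH, with a summed level of 83.6 adjusted CPM. They came from 9 of 92 cells, in which the members took 3.08%, and without these 9 cells the share in FLASH was 0.739%. The median log2 ratio of CONV over FLASH was then -0.75 with 45 members lower, and that of CONV AsiDNA over FLASH was -0.50 with 28 lower. These 2 counts stand without the share of all genes that were lower in the same cells. With the 10 most abundant genes left out of the total, the members took 1.49%, 1.92% and 2.73%. The part of Malat1, of these genes and of the makeup of the club cells in the difference was not tested.

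In ciliated cells the members were highest in CONV AsiDNA by small differences. Of 85 members, 79 were above 0 on the log2 scale in CONV AsiDNA over FLASH, with a median of 0.26 beside 0.08 over all 6548 genes, and 12 were above 0 in CONV over CONV AsiDNA, with a median of -0.25 beside 0.05. Only 2 and 4 members were past 1.5-fold in these comparisons, in CONV AsiDNA over FLASH all of them higher (where 2.47% of all genes were) and in CONV over CONV AsiDNA all of them lower (where 3.27% of all genes were). Both comparisons share the CONV AsiDNA library. Club markers in ciliated cells, of which the median cell had 2 above 0, summed to 18063, 54385 and 86810 adjusted CPM. The members ranked the libraries in another order, and the part of these markers in the difference was not tested. In AT1 cells the median was 0.26 in CONV over CONV AsiDNA and 0.29 in CONV over FLASH, beside -0.05 and 0.07 over all genes. There 19 of 84 members were higher and 8 lower in the former (where 20.1% and 21.8% of all genes were) and 18 higher and 4 lower in the latter (where 24.5% and 17.9% were). AT2 markers in the AT1 class summed to 836, 110 and 127 adjusted CPM, with 7, 2 and 2 of the 8 above 0, a median of 0 per cell and Cxcl15 listed at 0 in each library, and their part in the difference was not tested. Single AT1 cells varied widely, with interquartile ranges of the share of 0.969% to 3.15%, 0.928% to 3.26% and 0.571% to 3.14%.

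Alveolar macrophages had few members past the fold. In resident AM 3, 4 and 1 of 76 members were higher and 0, 0 and 0 lower in CONV over CONV AsiDNA, CONV over FLASH and CONV AsiDNA over FLASH. Of all genes 5.82%, 7.52% and 2.16% were higher and 14.9%, 13.6% and 1.36% lower there. In Spp1 macrophages 4, 7 and 2 of 76 members were higher and 0, 0 and 3 lower. Of all genes 4.26%, 9.97% and 11.3% were higher and 8.42%, 8.81% and 5.38% lower there. Patrolling monocytes had more members past the fold, 20 of 77 lower and 8 higher in CONV over CONV AsiDNA (where 16.4% and 18.2% of all genes were), at 44 cells in CONV.

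**Figure D4:**
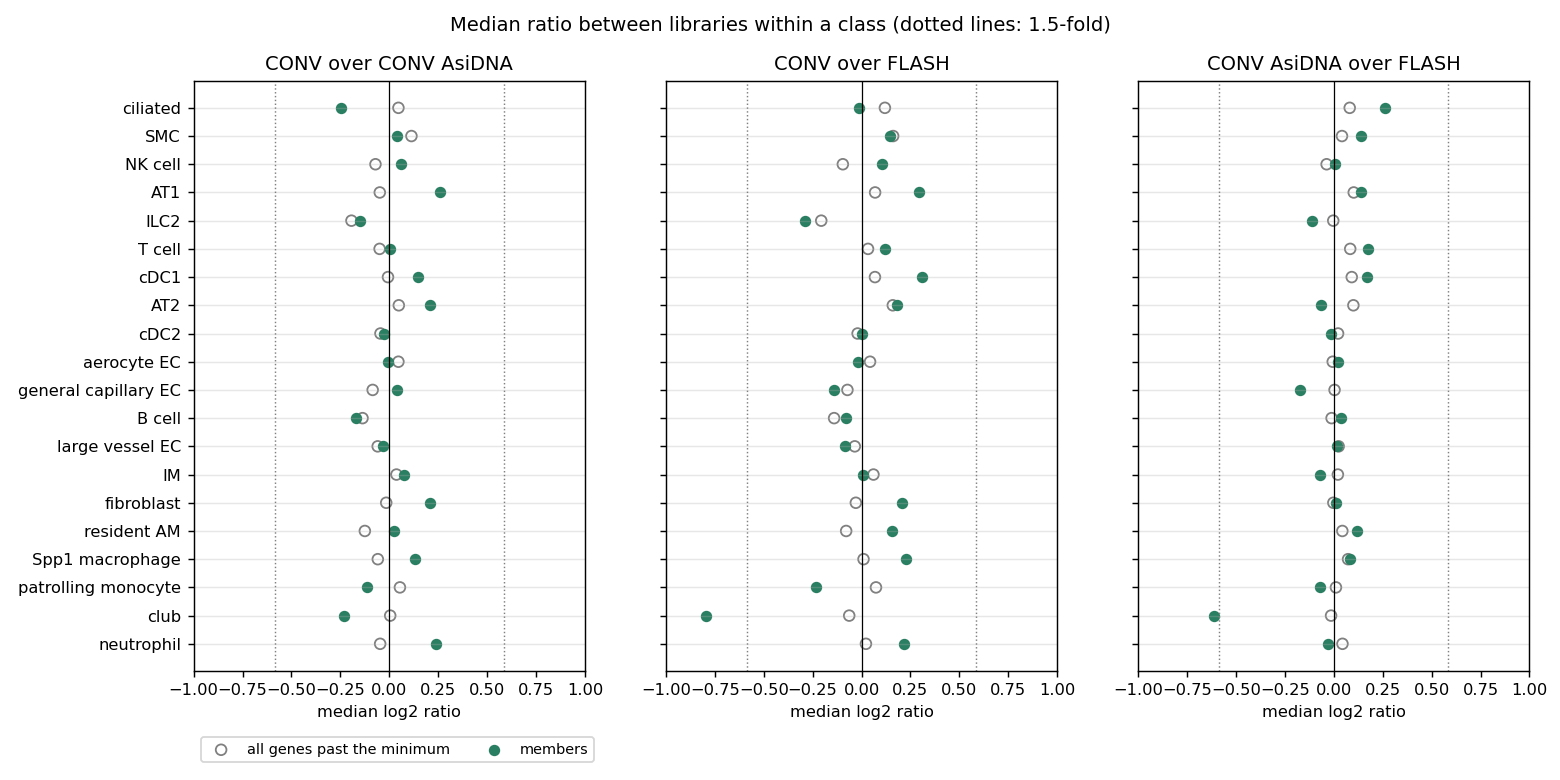
Median log2 ratio between a pair of libraries (x axis) within each of 20 classes (y axis) for the members (filled) and for all genes past the minimum (open), with dotted lines at 1.5-fold. The club class lies at -0.80 in CONV over FLASH and at -0.61 in CONV AsiDNA over FLASH, and all other classes lie inside the dotted lines.

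Single members differed from both other libraries in several classes. A member lay at least 1.5-fold below both others in CONV in 82 of 1568 pairs and above both in 52 (5.23% and 3.32%, where 8.97% and 7.18% of all gene and class pairs did). For FLASH 46 pairs were above and 35 below both others (2.93% and 2.23%, where 2.39% and 4.91% of all pairs were), and for CONV AsiDNA 19 were above and 33 below (1.21% and 2.1%, where 2.6% and 2.77% were). Most of the 46 pairs above both others in FLASH were in the club class, so this count was not spread over the classes. The complex I assembly factor Ndufaf4 was lower in CONV than in both others in 5 classes. It was at 38.5, 86.4 and 69.6 adjusted CPM in aerocytes, at 13.7, 92.8 and 85.8 in large vessel endothelium and at 10.3, 28.3 and 21.5 in ciliated cells. Ndufb6, a membrane arm subunit of complex I, was lower in CONV in 4 classes, and was at 6.25, 34.3 and 23.7 adjusted CPM in B cells and at 60.0, 111 and 130 in aerocytes. Ndufs7, a core iron-sulphur subunit, was lower in CONV in 4 classes, at 60.0, 102 and 107 in aerocytes and at 74.8, 124 and 171 in AT1 cells.

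Other members of complex I were higher in CONV. Ndufs4, an accessory subunit, was higher in CONV in 4 classes, at 78.2, 47.3 and 38.5 adjusted CPM in resident AM and at 98.4, 41.7 and 56.5 in patrolling monocytes. Among the members of complex V, Atp5g3 (a c-ring gene with near-identical copies in Atp5g1 and Atp5g2) was lower in CONV in 3 classes, at 53.7, 102 and 94.5 in B cells. Atp5md was higher in CONV in 3 classes, at 164, 87.1 and 99.6 adjusted CPM in B cells and at 137, 8.70 and 64.6 in neutrophils. In FLASH, Ndufc2 was below both others in 3 classes, at 72.3, 71.0 and 43.2 in resident AM, at 62.7, 54.9 and 33.3 in T cells and at 146, 106 and 51.1 in cDC1. Cox5a, Atp5a1 and Cox6a1 were each lower in CONV in 3 classes, club cells among them.

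Some members were listed at 0 in one library while above 0 in at least 10% of the cells of the class in another. Sdhc was above 0 in 0 of 69, 32 of 283 and 19 of 214 NK cells. In patrolling monocytes Ndufs7 was above 0 in 0 of 44, 39 of 253 and 49 of 354 cells, Ndufc2 in 0 of 44, 31 of 253 and 17 of 354, and Ndufv3 in 1 of 44, 0 of 253 and 41 of 354. In club cells Ndufv3 was above 0 in 0 of 87, 2 of 160 and 11 of 92. Patrolling monocytes of CONV were only 44 cells. As the adjustment of the deposited values is not known, a 0 is a listed value and sets no limit here.

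In most classes the mitochondrially encoded genes differed more between libraries than the nuclear members did. The highest library exceeded the lowest by 1.02-fold to 1.96-fold for the nuclear members (median 1.16 over 20 classes) and by 1.59-fold to 19.3-fold for the mitochondrially encoded genes (median 5.22 over the 19 classes in which none was at 0). The 19.3-fold was in cDC1, where these genes took only 0.0607%, 0.00796% and 0.154%. In patrolling monocytes (8.66-fold) they took 0.264%, 0.0305% and 0.156%. As the adjustment is not known, the size of folds between such small shares is not read as a result. In AT2 cells the nuclear members took 1.62%, 1.34% and 1.37% and the 13 mitochondrially encoded genes 1.48%, 3.07% and 5.20%. In resident AM the nuclear members took 1.08%, 1.04% and 0.991% and the mitochondrially encoded genes 2.31%, 0.383% and 2.53%. In AT2 cells and resident AM a low or high mitochondrial share in a library was not accompanied by a shift of the nuclear members of like size. The club class was the exception, with a 1.96-fold difference in the nuclear members and a 1.68-fold difference in the mitochondrially encoded genes (1.40%, 1.78% and 2.36%), in the same order of libraries.

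**Figure D5:**
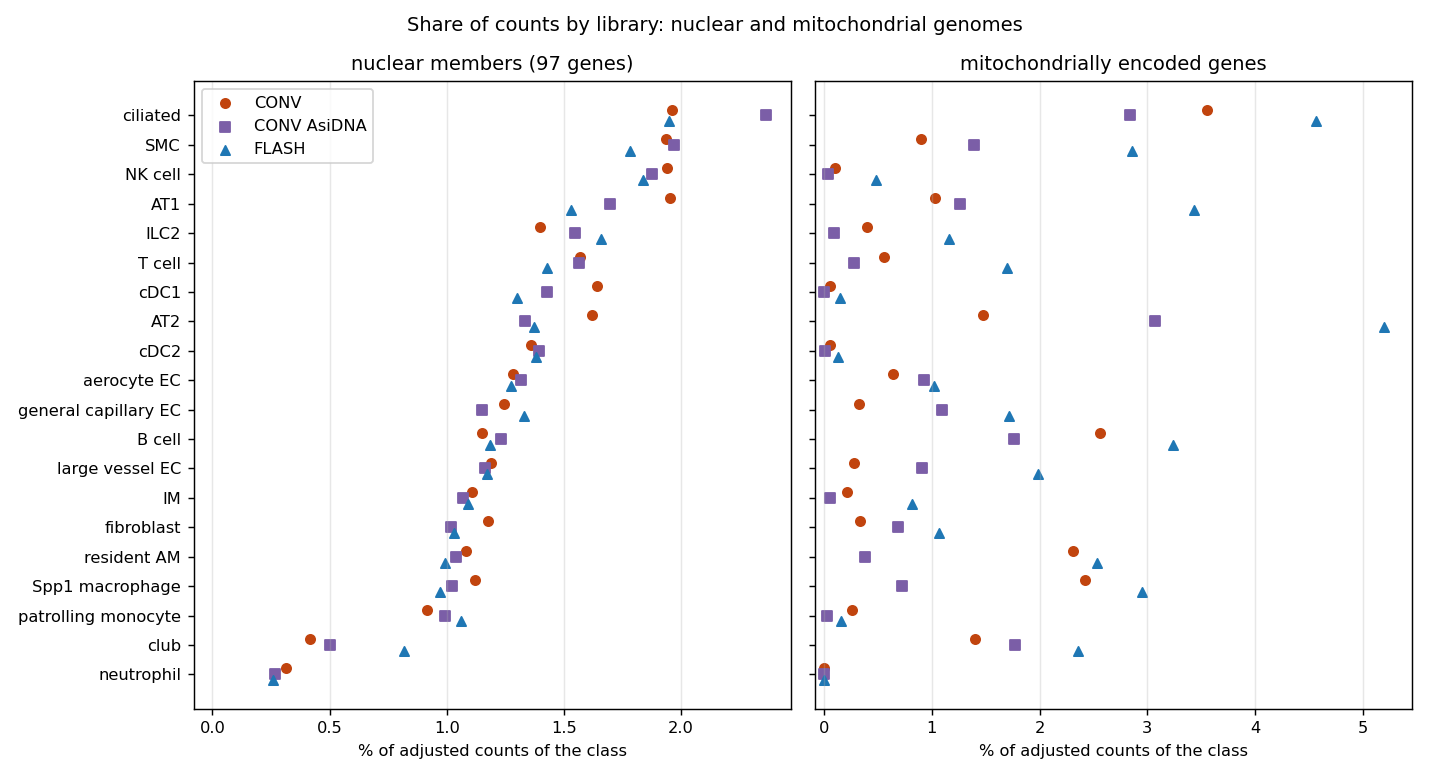
Percentage of the adjusted counts of a class (x axes) taken by the 97 nuclear members (left) and by the mitochondrially encoded genes (right) in 20 classes (y axis), with 1 point per library. In AT2 cells the mitochondrial share goes from 1.48% in CONV to 5.20% in FLASH while the nuclear share lies between 1.34% and 1.62%.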

How the data were processed

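Lung cells of 3 mice were profiled with droplet-based single-cell RNA sequencing (10x Genomics). Per the submitters' processing notes, Cell Ranger 6.0.0 and mm10 were used, and the paper names R and Seurat. The authors deposited, per gene and cell, the natural log (ln) of 1 plus a whole number, and no source used here states how that number was made. Values were converted back (100% within 1e-06 of a whole number) and were not tested with a count model. A further 4 tables were not used, because their gene identifiers are not those of the mouse libraries. They hold 12 columns of per-sample values.

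The members, lists and tests were chosen with earlier results of these data known. Cells with at least 200 genes were gated to the class with the most of 8 markers above 0, if at least 3 were, with a margin of 2 over other lineages and of 1 within a lineage. No doublet caller was run. Doublets across lineages are removed only as far as the margin does so. Classes were compared by ratios on adjusted CPM plus 10, and no p-value was computed. Named are the isoform pairs, the 6 highest and 6 lowest members, the 10 with the largest spread between classes, the 10 that differed from both other libraries in most classes, and members listed at 0 in 1 library. Members named beyond these illustrate a class or complex and were chosen after their values were seen. GENCODE M21 (GRCm38) gave positions for 95 of the 97 members, of which Atp5o has 2 gene models. In it, 2 members overlap another listed gene on the same strand and 29 on the opposite strand, and the strand setting of the counting is not given. Promoters were taken from RefSeq. The ratios were tested on simulated data. Alternatives changed the gate, the gene minimum, the total, the depth, the prior, the level minimum, the scaling and the fold. The total without the 10 most abundant genes and the club cells without ciliated markers were added after seeing the data. Python 3.11.15 with numpy 2.4.6, scipy 1.17.1 and matplotlib 3.10.9 was used.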

Additional observations from a re-analysis of the deposited data

Results flagged for a closer look

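Classes whose members moved in opposite directions between the same pair of libraries are listed here. No difference between classes was tested, as each condition had 1 mouse. In CONV over CONV AsiDNA the median log2 ratio of the members was -0.25 in ciliated cells and 0.26 in AT1 cells. AT2 markers in the AT1 class summed to 836 (CONV) against 110 adjusted CPM (CONV AsiDNA), and their part was not tested. In CONV over FLASH it was -0.80 in club cells and 0.31 in cDC1, where 16 of 77 members were higher and 2 lower and 17.1% and 13.1% of all genes were. In CONV AsiDNA over FLASH it was -0.61 in club cells and 0.26 in ciliated cells, both of them airway epithelium. Over 12 alternatives the club ratio was inside 1.5-fold in 1 for CONV over FLASH and in 6 for CONV AsiDNA over FLASH. Ciliated markers were above 0 in 9 of 92 club cells of FLASH. Club markers in ciliated cells summed to 18063, 54385 and 86810 adjusted CPM (CONV, CONV AsiDNA and FLASH). The part of either set of markers was not tested. The pairs of classes listed here share libraries, and the classes of a pair come from the same mice.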

How the results depend on the processing

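No paired analysis was possible because each condition had 1 library. With 1 mouse per group, no spread between animals is known, and the deposited adjustment limits what a listed 0 says. No ratio past 1.5-fold turned direction under the alternatives run, and 317 of 382 alternative values of the main results stayed within 1.5 times a count, 0.1 of a log2 ratio or the interval of a share. The cause of the other changes was not tested, except where fewer genes pass a stricter rule.

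The ratio of ciliated to neutrophil shares became 4.82, 6.79 and 5.85 without the 10 most abundant genes (CONV, CONV AsiDNA, FLASH). As a mean of per-cell shares it was 8.25 in CONV AsiDNA and 7.15 in FLASH, and in FLASH it was 6.99 when thinned to 1000 adjusted counts and 7.99 without Gm42418, AY036118 and mt- genes. Complex II in resident AM was 4.37% by per-cell means in CONV AsiDNA and 4.10% thinned in FLASH. Thinned isoform shares were 54.4% for Cox6a2 in AT2 cells of CONV, 66.7% and 63.9% for Cox6b2 in fibroblasts of CONV and CONV AsiDNA, and 26.5% for Cox8b in fibroblasts of FLASH.

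In club cells, CONV AsiDNA over FLASH was -0.496 with cells of at least 500 genes, -0.905 thinned, -0.458 with no minimum, -0.477 without the 10 most abundant genes and -0.495 without ciliated markers. CONV over CONV AsiDNA was -0.0672 with at least 500 genes, -0.112 thinned and -0.354 without the 10 genes. CONV over FLASH was -0.525 with at least 500 genes, -1.12 thinned, -0.942 with a prior of 1 and -0.672 with no minimum. Lower members in club cells at a minimum of 100 and at a fold of 2 were 15 and 28 in CONV over FLASH, 12 and 10 in CONV AsiDNA over FLASH, and 2 and 4 in CONV over CONV AsiDNA, where they were 16 thinned, 16 with a prior of 1 and 24 without the 10 genes. The share of all club genes that were lower under these settings is not given, so the counts are not read against it.

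The counts in this paragraph are given without the share of all genes past the fold under the same setting. They show only how far a count of members moves and are not a result about the members. Against the other classes, a fold of 2 left 20 higher members in ciliated cells, 10 in the SMC class and 5 in NK cells, and 19 lower in club cells and 13 in resident AM. A minimum of 100 left 21 higher in ciliated cells and 16 in the SMC class, and 28 lower in club cells, 42 in neutrophils and 17 in resident AM. In club cells 21 were lower with at least 500 genes, 29 thinned and 4 without the 10 genes. Over member and class pairs, thinning, a minimum of 100 and a fold of 2 gave 227, 45 and 23 higher and 231, 36 and 34 lower in CONV over CONV AsiDNA. They gave 245, 53 and 32 higher and 247, 48 and 60 lower in CONV over FLASH, and 172, 21 and 14 higher and 201, 27 and 21 lower in CONV AsiDNA over FLASH.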
